A study of Mus musculus with 6 samples.

Results

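Chemokines are small secreted proteins that direct the movement of cells, and most act through membrane receptors that couple to Gi proteins. The genes described here are the ligands and receptors with systematic family names: CC ligands (Ccl), CXC ligands (Cxcl), the CX3C ligand (Cx3cl1), their CC, CXC and CX3C receptors, and the atypical chemokine receptors (Ackr), which bind chemokines without classical G protein signalling. Members were chosen by these names, with earlier results of these data known, from probe sets annotated to that gene only. They came to 51 genes, read by 83 probe sets, among 18193 genes with a probe set of their own. Of the 51, 32 were ligands (18 CC, 13 CXC and 1 CX3C) and 19 were receptors (9 CC, 5 CXC, 1 CX3C and 4 atypical).

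The study measured RNA from the bladder epithelium of mice labelled male at postnatal day 7 on 6 Affymetrix expression arrays. The labels gave 3 arrays to DsRed-positive cells and 3 to DsRed-negative cells, DsRed being a red fluorescent protein, and numbered them 1, 2 and 5 in each group. Mice of both groups were reported as carrying the same Upk1b allele, B6;129P-Upk1btm1Zhang/J, on the strain FVB/N x C57BL/6, and the samples were not pooled. Upk1b encodes a uroplakin of the urothelial surface; what drives DsRed, how cells were parted by it and whether arrays came from different mice is not given in the labels, so the p-values speak only of how these 6 samples vary. Tissue was loosened with trypsin, dissected from the wall and digested with Blendzymes to single cells, and its RNA went through 2 rounds of amplification.

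Within the bladder, the urothelium is a lining that releases chemokines when it meets bacteria or injury, and fibroblasts, endothelium and resident leukocytes of the wall are sources of chemokines and carriers of their receptors. CXC ligands with the ELR motif, such as Cxcl1 and Cxcl2, draw neutrophils, while CC ligands act mainly on monocytes, macrophages, T cells and eosinophils. Many members are induced through NF-kappaB and interferon signalling, whereas Cxcl12 and Cxcl14 are largely constitutive.

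The labels call all 6 samples bladder epithelial cells, and the marker genes set the groups apart. All 11 urothelial markers were higher in DsRed-positive cells (beside 9.21% of all genes tested), with a summed signal of 325408 to 514784 against 23969 to 45927. All 10 stromal markers were lower (beside 11.3% of all genes tested), with sums of 14373 to 27479 against 616332 to 1457146. The DsRed-negative arrays thus held much signal of stromal genes. In bulk samples fewer cells of a type and less RNA per cell cannot be told apart. Trimmed by 2% at each end, every array averaged 1500.01, and hybridization control signals averaged 13.18 to 16.68 on the log2 scale, lowest on DsRed-positive 1 and highest on DsRed-negative 2. Both arrays numbered 1 went against the labelled sex: Xist read 28183 and 45699 on them and 203 to 546 on the other 4, and the Y-linked Eif2s3y 3.83 and 31.2 against 3309 to 8043. Calls of the members below are also given without those 2 arrays, as are calls of other named genes that were then lost. The marker genes, the counts over the other gene lists and some of their genes, such as Il17a and Sdc1, were not refitted without them.

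Values are probe set signals, a brightness in arbitrary units, and levels are not compared between genes; sums over a marker list are compared only between arrays, and bright probe sets weigh most in them. Where signals are listed, they are the deposited ones, in the order of arrays 1, 2 and 5. Differences are on a log2 scale after an offset of 39.84 and quantile normalization, which understates the change of dim genes, and they are given as DsRed-positive minus DsRed-negative with the standard error of the limma fit. Each gene stands by its brightest probe set unless others are named. A control level, set on each array at the 95th percentile of its 27 unspiked controls (signals of 106 to 268), marks where a signal cannot be told from background.

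The tested members were lower or did not pass the test in DsRed-positive cells, and 0 were higher. Ppbp, a chemokine gene kept out of the members by its symbol, was higher and is given below. Of the 51 members, 35 passed the filter on low values and were tested (24 ligands and 11 receptors), and 16 did not. By limma with an adjusted p under 0.05, 11 of the 35 (31.4%) were lower, beside 11.3% of all 14222 genes tested, and 0 were higher, beside 9.21% of all genes. At an unadjusted p under 0.05 the counts were 18 lower and 0 higher, but the share of all genes at that threshold was not computed. The median difference of the tested members was -1.05, beside 0.04 over all genes, and 31 of the 35 differences were below 0. On 19 members every DsRed-positive array lay below every DsRed-negative array, which held for 21.4% of all genes, and on 0 members every DsRed-positive array lay above, which held for 22.0% of all genes. A member bright in only 1 group can pass the filter through that group alone, so these counts describe the tested genes and not the 51. With each array centred on its median instead, the calls over all genes turned from 1310 higher and 1603 lower to 2568 higher and 1400 lower, while 13 members were lower and 0 higher.

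The 6 lower ligands were Cxcl14, Cxcl12, Cxcl1, Cxcl2, Ccl3 and Ccl4, and the 5 lower receptors were Ackr3, Cx3cr1, Cxcr4, Ccr2 and Ackr1. By role, 4 of 11 tested CXC ligands, 2 of 12 CC ligands, 1 of 2 CXC receptors, 1 of 4 CC receptors, the CX3C receptor and 2 of 4 atypical receptors were lower; the CC ligands, at 16.7%, stood near the 11.3% of all genes. Without both arrays numbered 1, 6 of the 35 members were called, where 5.33% of all genes were called lower: Cxcl14, Cxcl12, Cxcl1, Cxcl2, Ackr3 and Cx3cr1. The other 5 kept their direction. Ackr1 (-1.83, adjusted p = 0.0791) and Ccl4 (-1.88, adjusted p = 0.106) differed by as much or more without these arrays, and Cxcr4 (-2.12, adjusted p = 0.0760), Ccl3 (-2.38, adjusted p = 0.0652) and Ccr2 (-1.28, adjusted p = 0.169) by less.

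**Figure D1:**
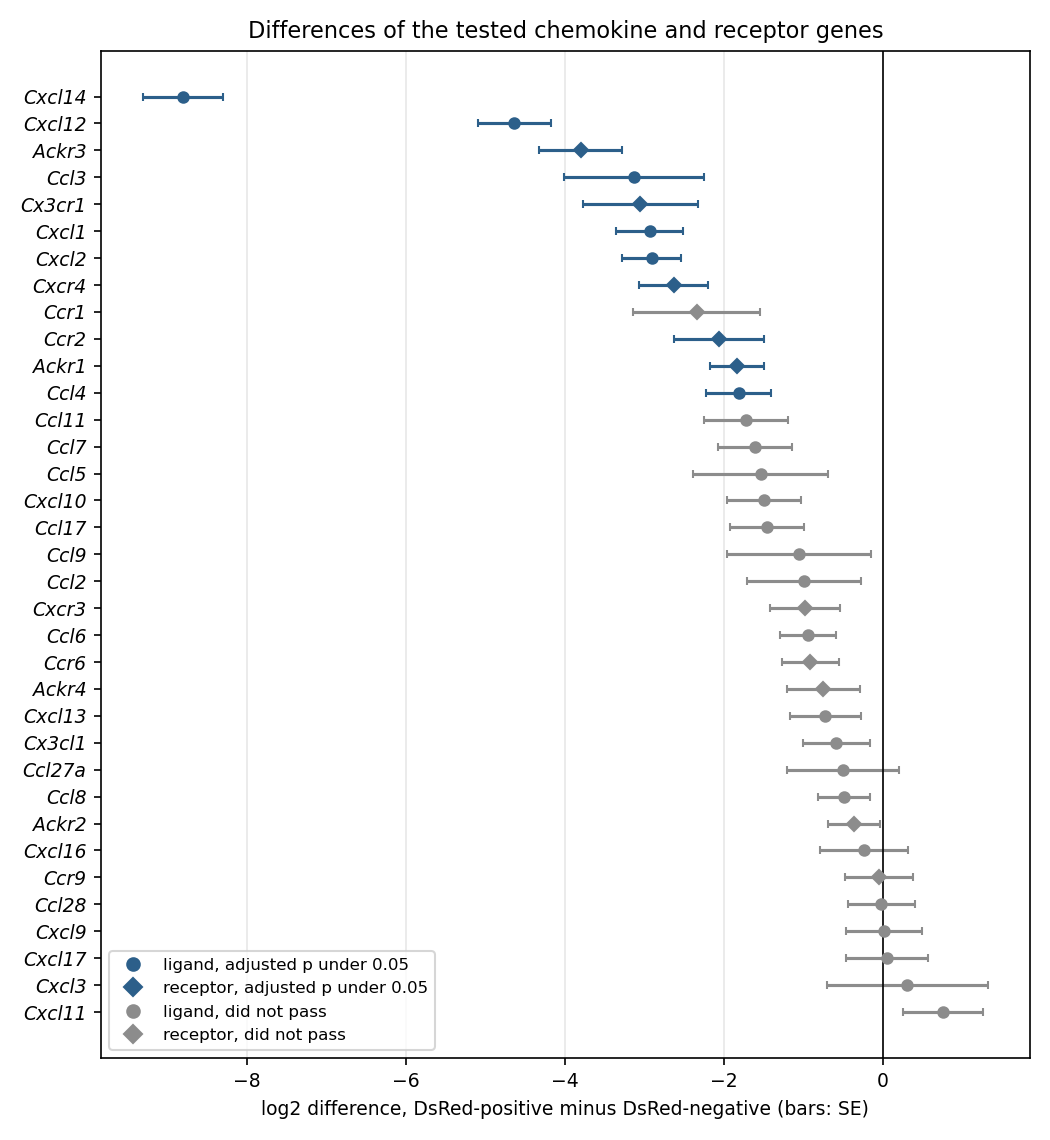
Differences of the 35 tested members on the log2 scale (x axis, DsRed-positive minus DsRed-negative), 1 line a gene ordered by value, with bars for the standard error and circles for ligands, diamonds for receptors. The 11 members with an adjusted p under 0.05, in blue, all lie below 0, from -8.80 for Cxcl14 to -1.82 for Ccl4, and the 4 values above 0 reach 0.76.

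Among the CXC ligands, Cxcl14 had the largest difference of all tested members. It is a constitutively made chemokine of epithelia and fibroblasts. Its signals were 41.6, 16.8 and 13.5 in DsRed-positive cells and 15021, 59196 and 44056 in DsRed-negative cells. All 3 DsRed-positive arrays lay at or below the control level and all 3 DsRed-negative arrays far above it, so the fold is a bound: at least 171-fold lower. The normalized log2 signals were 6.11 ± 0.37 and 14.91 ± 0.90 (SD, n = 3 each), a difference of -8.80 ± 0.50 with a limma adjusted p of 9.55e-05. The other probe set of Cxcl14 was lower too, by at least 19.0-fold (difference -5.32).

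Cxcl12, the homeostatic ligand made by stromal cells that retains Cxcr4-bearing cells, read 120, 474 and 348 in DsRed-positive cells against 9085, 7311 and 10379 in DsRed-negative cells. The groups lay far apart, and every DsRed-positive array was still above its control level. The log2 signals were 8.53 ± 0.80 and 13.17 ± 0.24 (SD, n = 3 each), a difference of -4.64 ± 0.46 (24.9-fold lower, limma adjusted p = 0.000627). A second probe set of Cxcl12 read 11.0, 61.3 and 198 against 6599, 4326 and 5464, with 2 DsRed-positive arrays at or below the control level (difference -5.54).

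Cxcl1 and Cxcl2, ligands of Cxcr2 that draw neutrophils, were lower in DsRed-positive cells and well above the control level in both groups. For Cxcl1 the signals were 18972, 8380 and 17267 against 96840.4, 173951 and 191042. The log2 signals of 13.79 ± 0.70 and 16.73 ± 0.15 (SD, n = 3 each) differed by -2.93 ± 0.42, or 7.64-fold (limma adjusted p = 0.0032), and its other probe sets gave -3.25 and -3.70. All 3 probe sets of Cxcl1 therefore stood lower. Cxcl2 read 4869, 6402 and 9039 in DsRed-positive cells and 51293, 60704 and 48775 in DsRed-negative cells. Its log2 signals of 12.63 ± 0.50 and 15.53 ± 0.15 (SD, n = 3 each) differed by -2.91 ± 0.37, or 7.5-fold (limma adjusted p = 0.0018). The calls of Cxcl14, Cxcl12, Cxcl1 and Cxcl2 were kept in every alternative run, including each array left out in turn.

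**Figure D2:**
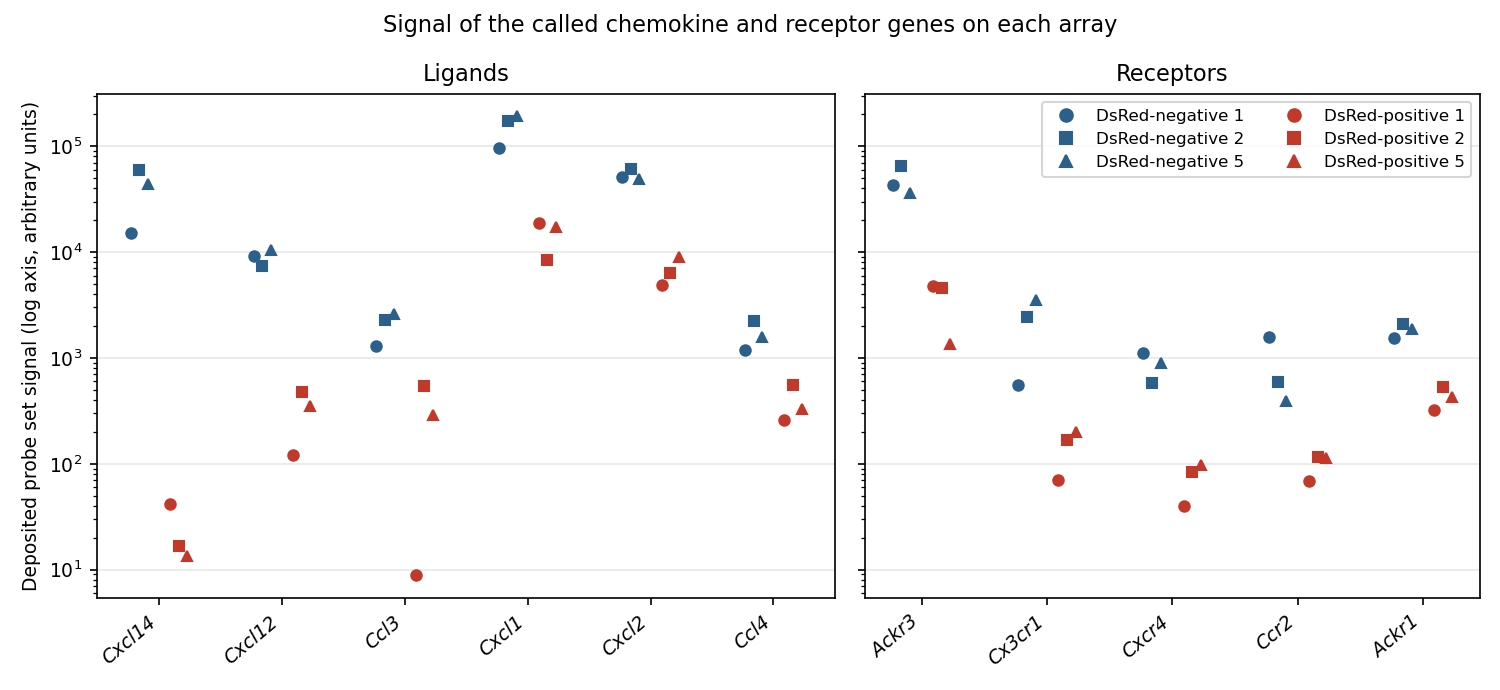
Deposited probe set signal (y axis, log scale, arbitrary units) of the 6 ligands and 5 receptors that were lower, 1 point an array; blue marks DsRed-negative and red DsRed-positive, and circle, square and triangle mark arrays 1, 2 and 5. In all 11 genes the 3 red points lie below the 3 blue ones, as in Cxcl2 with 4869 to 9039 against 48775 to 60704. The genes were called lower on these same arrays, so their separation adds no support. On normalized signals such separation held for 21.4% of all genes tested.

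The remaining tested CXC ligands did not pass the test. Cxcl10, an interferon-induced ligand of Cxcr3, read 2421, 1082 and 1319 against 2512, 6358 and 4683, with a difference of -1.50 ± 0.47 (limma adjusted p = 0.0669). The lowest DsRed-negative array stood only just above the highest DsRed-positive one. Cxcl16, a membrane-bound ligand of Cxcr6, read 2344, 4098 and 1693 against 4993, 3248 and 1472, and the groups overlapped (difference -0.24 ± 0.55, adjusted p = 0.802). Cxcl11, another Cxcr3 ligand, had the highest value above 0, 0.76 ± 0.50 (adjusted p = 0.346), from signals of 522, 799 and 192 against 315, 419 and 291. The mean over its probe sets was -0.29. Cxcl13, which draws B cells, stood at -0.72 (adjusted p = 0.319), while the mucosal Cxcl17 stood at 0.05 (adjusted p = 0.959). The probe set of Cxcl9, also a Cxcr3 ligand, lay at or below the control level on 5 of 6 arrays, so its value of 0.02 (adjusted p = 0.986) says little. Its other probe set, not tested, read 14.7, 17.6 and 58.6 in DsRed-positive cells against 31.8, 1269 and 191.

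The genes of several CXC ligands lie side by side. In the RefSeq gene order of GRCm38.p6, 7 neighbours run Cxcl5, Ppbp, Pf4, Cxcl3, Cxcl15, Cxcl1 and Cxcl2. Ppbp and Pf4 encode platelet chemokines known as Cxcl7 and Cxcl4, and their symbols kept them out of the members. Promoter windows of the 5 neighbours that were tested are shown because those genes differed in direction. Each runs from 250 bases before to 50 bases after the RefSeq start on the plus strand of GRCm38.p6, 5′ to 3′. Capitals mark every match on either strand to a kappaB motif, bound by NF-kappaB, or to TATAAA.
Ppbp (chr5:90768268-90768567): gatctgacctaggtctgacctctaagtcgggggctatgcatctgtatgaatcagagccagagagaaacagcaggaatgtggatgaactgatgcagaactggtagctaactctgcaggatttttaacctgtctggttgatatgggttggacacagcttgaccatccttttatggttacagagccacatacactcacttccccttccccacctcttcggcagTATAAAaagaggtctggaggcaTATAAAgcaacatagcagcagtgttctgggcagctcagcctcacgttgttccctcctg
Pf4 (chr5:90772185-90772484): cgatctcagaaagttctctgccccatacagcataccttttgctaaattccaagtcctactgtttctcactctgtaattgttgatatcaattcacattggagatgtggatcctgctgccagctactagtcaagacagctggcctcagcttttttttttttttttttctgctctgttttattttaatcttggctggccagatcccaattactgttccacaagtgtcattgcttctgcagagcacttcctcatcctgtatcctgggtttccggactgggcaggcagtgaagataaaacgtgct
Cxcl3 (chr5:90785851-90786150): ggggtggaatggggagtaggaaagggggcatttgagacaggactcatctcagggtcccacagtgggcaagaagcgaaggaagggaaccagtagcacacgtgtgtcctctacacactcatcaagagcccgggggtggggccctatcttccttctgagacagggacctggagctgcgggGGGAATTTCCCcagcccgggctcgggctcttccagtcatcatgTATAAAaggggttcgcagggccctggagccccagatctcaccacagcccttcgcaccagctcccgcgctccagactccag
Cxcl1 (chr5:90890995-90891294): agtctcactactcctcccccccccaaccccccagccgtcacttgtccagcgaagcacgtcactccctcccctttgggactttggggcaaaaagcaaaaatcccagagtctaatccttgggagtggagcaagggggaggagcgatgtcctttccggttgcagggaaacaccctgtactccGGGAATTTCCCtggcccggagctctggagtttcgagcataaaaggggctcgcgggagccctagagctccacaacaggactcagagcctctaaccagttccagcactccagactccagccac
Cxcl2 (chr5:90903649-90903948): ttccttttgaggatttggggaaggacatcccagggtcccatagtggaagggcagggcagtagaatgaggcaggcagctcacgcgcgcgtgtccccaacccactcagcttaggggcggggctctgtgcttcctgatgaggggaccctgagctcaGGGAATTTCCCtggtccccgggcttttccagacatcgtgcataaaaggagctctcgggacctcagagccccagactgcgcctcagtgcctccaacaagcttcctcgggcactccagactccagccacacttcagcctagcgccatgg

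Cxcl1, Cxcl2 and Cxcl3 each held a kappaB match within 100 bases before the start, the match nearest the 5′ end beginning at -71, -97 and -73. Those of Ppbp and Pf4 held none in these windows, and Ppbp held TATAAA 2 times. Of the 51 members, 38 were matched to the RefSeq promoter table, in 42 windows. A kappaB match was found in 10 of these 42 windows, from 10 members, beside 4.51% of all 32851 windows. Of the 10 called members that were matched it was found in 2, Cxcl1 and Cxcl2. The others with a match were Ackr2, Ccl20, Ccl27a, Ccl9, Ccr3, Ccr6, Cxcl10 and Cxcl3. TATAAA was found in 12 of the 42 windows, from 12 members, beside 13.6% of all windows. GAAANNGAAA, a run found in interferon-response elements, was found in 2 of the 42, of Cxcl10 and Cxcl14, beside 3.44% of all windows. These are matches of letters and not measured binding.

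Over this stretch the genes went different ways. Ppbp was higher in DsRed-positive cells, with 11027, 8885 and 4172 against 279, 410 and 183, so the groups lay far apart and 1 DsRed-negative array was at or below the control level. Its log2 signals of 12.81 ± 0.72 and 8.05 ± 0.45 (SD, n = 3 each) differed by 4.76 ± 0.46, or 27.2-fold (limma adjusted p = 0.000586), a call kept in all 16 alternatives. Its neighbour Pf4 was lower, with 436, 982 and 1029 against 1538, 6125 and 6844, a difference of -2.27 ± 0.64 (adjusted p = 0.0489). Of 6 fits with an array left out, that call held only without DsRed-negative 1 (difference -2.97), with an adjusted p of 0.170 when DsRed-positive 1 was left out. It was also lost with median centring (adjusted p = 0.0668), an offset of 1 (0.0735), no filter (0.0694) and without suffixed probe sets (0.0512). Without both arrays numbered 1 the call was kept (difference -2.65, adjusted p = 0.0320), and it was kept in 7 of 16 alternatives in all. Cxcl3, a Cxcr2 ligand, read 222, 446 and 38.2 against 11.8, 346 and 632, and its groups overlapped (difference 0.31 ± 1.01, adjusted p = 0.868). Cxcl5, a Cxcr2 ligand of epithelia, stayed at or below the control level on all 6 arrays, at 18.0 to 79.4 in DsRed-positive and 6.82 to 33.5 in DsRed-negative cells. Cxcl15 was not tested.

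**Figure D3:**
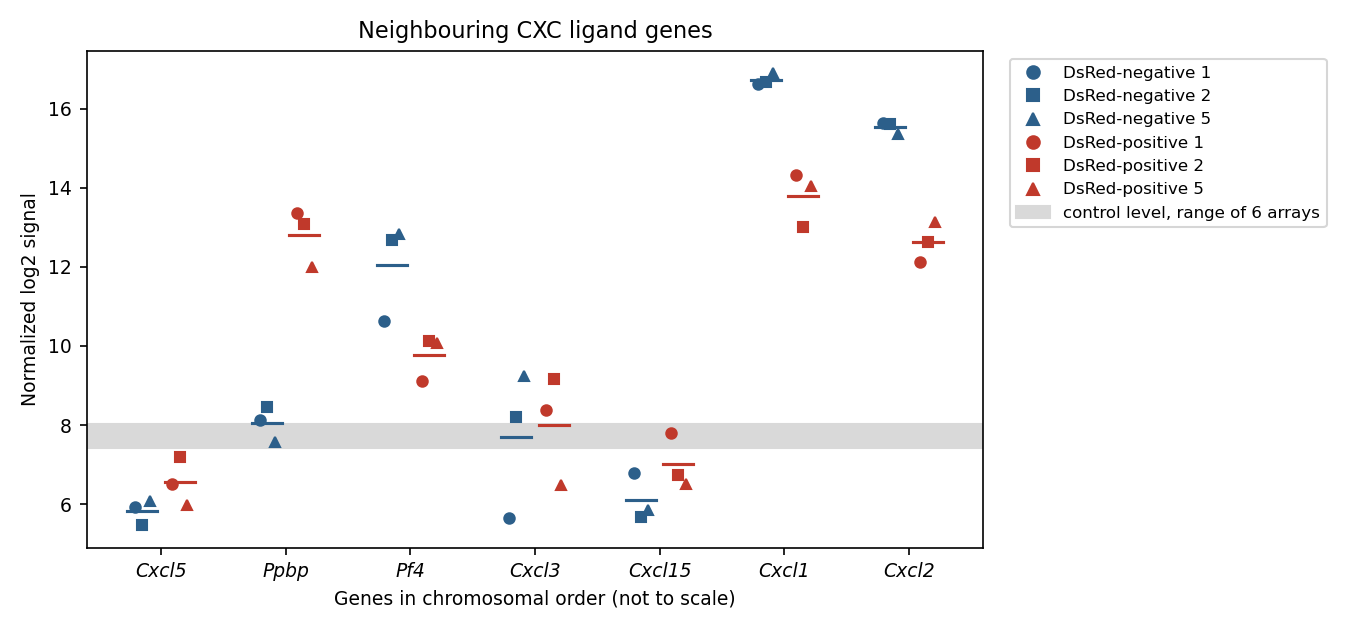
Normalized log2 signal (y axis) of 7 neighbouring CXC ligand genes in chromosomal order (x axis, not to scale), 1 point an array and a bar at each group mean, blue for DsRed-negative and red for DsRed-positive, with the control level shaded. Ppbp lies higher in DsRed-positive cells (12.81 against 8.05), Cxcl1 and Cxcl2 lie lower (13.79 against 16.73 and 12.63 against 15.53), and Cxcl5 lies under the shaded band on all 6 arrays.

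Of the CC ligands, Ccl3 and Ccl4 were lower in DsRed-positive cells. Both are macrophage inflammatory proteins, made by activated macrophages, mast cells and lymphocytes and acting through Ccr1 or its relatives, and their genes are neighbours. Ccl3 read 8.94, 542 and 288 against 1292, 2282 and 2619. DsRed-positive 1 alone was at or below the control level, and the groups did not overlap. The log2 signals of 7.87 ± 1.90 and 11.01 ± 0.56 (SD, n = 3 each) differed by -3.14 ± 0.88, or 8.79-fold (limma adjusted p = 0.0484). Of 6 fits with an array left out, the call held only without DsRed-positive 2; the adjusted p reached 0.113 without DsRed-negative 5, and the difference was -2.07 without DsRed-positive 1. It was lost with an offset of 1 (adjusted p = 0.118) and with no filter (adjusted p = 0.0696). Ccl4 read 258, 560 and 329 against 1179, 2223 and 1593, and all of these lay above the control level without overlap. Its difference was -1.82 ± 0.41, from 8.87 ± 0.48 and 10.69 ± 0.46 (SD, n = 3 each), or 3.52-fold (limma adjusted p = 0.0217). It was lost in 2 of 6 such fits, without DsRed-positive 1 (adjusted p = 0.0943) and without DsRed-positive 5 (adjusted p = 0.0812).

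The monocyte and eosinophil attractants next to each other on the chromosome did not pass the test. Ccl2, the main ligand of Ccr2, read 149, 463 and 415 against 268, 1279 and 1587, with overlapping groups and a difference of -0.998 ± 0.72 (limma adjusted p = 0.385). Ccl7, another Ccr2 ligand, differed by -1.61 (adjusted p = 0.0546) and the eosinophil attractant Ccl11 by -1.73 (adjusted p = 0.0637), both without overlap between groups. Ccl7 was at or below the control level on 2 of the 3 DsRed-positive arrays and Ccl11 on all 3. Ccl8 read 399, 567 and 675 against 797, 1016 and 958 and differed by -0.49 (adjusted p = 0.343). Ccl12 was not tested, and 1 array, DsRed-negative 5, read 1266 while the other 5 read 3.76 to 170.5.

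The neighbours of Ccl3 and Ccl4 varied among the DsRed-negative arrays. Ccl5, made by T and NK cells, read 97.5, 26.1 and 29.3 against 286, 58.8 and 1022 (difference -1.54, limma adjusted p = 0.263). Ccl9, made by macrophages, read 93.0, 81.7 and 92.5 against 650.2, 32.6 and 819.8 (difference -1.05, adjusted p = 0.471). On these probe sets DsRed-negative 2 was low and the other DsRed-negative arrays stood above all DsRed-positive ones. The other probe set of Ccl9, not tested, read 8.78, 77.0 and 20.2 against 39.8, 201 and 147. It had DsRed-negative 2 as the highest array and lay at or below the control level on all 6. Without DsRed-negative 2, Ccl5 differed by -2.43 (adjusted p = 0.0474), Ccl9 by -2.22 (adjusted p = 0.00646), and Ccl17, a Ccr4 ligand, by -1.85 (adjusted p = 0.0274), so these 3 were then called. DsRed-negative 2 was the lowest of its group in all 3, and leaving out such an array widens the difference by itself. These calls therefore add no support. With all arrays, Ccl17 stood at -1.46 (adjusted p = 0.0719). Lymphocyte markers on that array went different ways: Nkg7, of cytotoxic lymphocytes, read 18.4 against 541 and 511 on the other DsRed-negative arrays, while Cd3e, of T cells, read 672 against 514 and 540.1. The summed signal of the list was 2520 there against 2740 and 2889, and the part of these cells was not tested. Ccl6 differed by -0.94 (adjusted p = 0.108).

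The epithelial CC ligands showed no difference past the threshold. Ccl28, a mucosal ligand of Ccr10, read 347, 958 and 406 against 593, 770.1 and 636, with a difference of -0.02 ± 0.42 (limma adjusted p = 0.978). Its groups overlapped. Ccl27a, the skin ligand of Ccr10, stood at -0.50 ± 0.71 (adjusted p = 0.671). Ccl20, the epithelial ligand of Ccr6, was not tested: it read 9.27, 12.6 and 73.4 against 44.9, 58.1 and 36.1 and lay at or below the control level on all 6 arrays. Ccl1, Ccl22, Ccl24 and Ccl25 were not tested either. Cx3cl1, a membrane-tethered ligand of endothelium and epithelium, read 379, 349 and 278 against 402, 1014 and 757, with an overlap after normalization (difference -0.59, adjusted p = 0.383).

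Among the receptors, Cxcr4 and Ackr3, the receptors of Cxcl12, were both lower in DsRed-positive cells, as was Cxcl12 itself. Cxcr4 signals in migrating leukocytes and progenitors. It read 39.6, 82.7 and 98.3 against 1102, 576 and 902, so all 3 DsRed-positive arrays lay at or below the control level. The log2 signals were 7.00 ± 0.45 and 9.64 ± 0.59 (SD, n = 3 each), a difference of -2.63 ± 0.43 or at least 4.42-fold lower (limma adjusted p = 0.00567). Ackr3, a scavenger of Cxcl12 found on stromal and endothelial cells, read 4791, 4536 and 1359 against 43319, 65679 and 36183. The DsRed-positive signals were well above the control level, yet far below those of DsRed-negative cells. Its difference was -3.80 ± 0.52, from 11.57 ± 0.96 and 15.37 ± 0.36 (SD, n = 3 each), or 14-fold (limma adjusted p = 0.00261).

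The leukocyte receptors Cx3cr1 and Ccr2 were lower as well, on calls that rested on most of the arrays being present. Cx3cr1 marks tissue macrophages and patrolling monocytes. Its signals were 70.0, 168 and 201 against 557, 2424 and 3499, without overlap; DsRed-positive 1 was at or below the control level, and DsRed-negative 1 was the lowest of its group. The difference was -3.05 ± 0.72, from 7.71 ± 0.57 and 10.76 ± 1.45 (SD, n = 3 each), or 8.29-fold (limma adjusted p = 0.026). Of 6 fits with an array left out, the call held only without DsRed-negative 1 (difference -3.87, adjusted p = 0.00373), and leaving out DsRed-positive 1 took the adjusted p to 0.108. Ccr2, the receptor of inflammatory monocytes, read 68.3, 115 and 114 against 1563, 597 and 395, again without overlap. It differed by -2.06 ± 0.56, from 7.36 ± 0.30 and 9.42 ± 1.10 (SD, n = 3 each), or 4.17-fold (limma adjusted p = 0.0436). The call held only without DsRed-negative 5; the difference was -1.44 without DsRed-negative 1, the adjusted p reaching 0.152 when DsRed-positive 1 was left out, and was lost with an offset of 1 (adjusted p = 0.0529) and with no filter (adjusted p = 0.0618). Its other tested probe set did not pass (difference -1.74, adjusted p = 0.120).

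Of the atypical receptors, Ackr1 was also lower. It is carried by venular endothelium and red cells and binds CC and CXC chemokines of inflammation. Its signals were 320.3, 535 and 429 against 1537, 2084 and 1892, all above the control level and without overlap. The log2 signals of 9.04 ± 0.30 and 10.87 ± 0.22 (SD, n = 3 each) differed by -1.83 ± 0.34, or 3.57-fold (limma adjusted p = 0.00929). Ackr4, a scavenger of Ccl19, Ccl21 and Ccl25, read 346, 924 and 350.3 against 750.1, 1352 and 998, with overlapping groups (difference -0.75, adjusted p = 0.308). Ackr2, a scavenger of inflammatory CC chemokines, stood at -0.36 (adjusted p = 0.489), and its 2 tested probe sets differed in sign.

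The other tested receptors did not pass. Ccr1, a receptor of Ccl3 and Ccl5, read 8.97, 7.92 and 132 against 420.5, 158 and 1071 (difference -2.35 ± 0.80, limma adjusted p = 0.0878). DsRed-negative 2 was again the lowest of its group, and without it the difference was -3.04 (adjusted p = 0.0322), a widening that leaving out the lowest array brings by itself. The other tested probe set of Ccr1 read 66.35, 7.35 and 206 against 241, 231 and 357. Its groups overlapped and it did not pass (difference -1.10, adjusted p = 0.264). Ccr6, a receptor of lymphocytes and dendritic cells, read 118, 157 and 251 against 459, 681 and 397 (difference -0.91, adjusted p = 0.130). Cxcr3, carried by activated T cells, read 194, 143 and 90.6 against 661, 416 and 338 (difference -0.98, adjusted p = 0.170). In both, every DsRed-positive array lay below every DsRed-negative array. The gut-homing receptor Ccr9 stood at -0.05 and did not pass, on a probe set at or below the control level on 4 of 6 arrays. Another of its probe sets, not tested, read 10.8, 34.7 and 51.0 against 51.8, 509 and 422.

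The 8 receptors that were not tested included Cxcr2, the neutrophil receptor of Cxcl1, Cxcl2 and Cxcl5. It read 19.9, 34.2 and 42.2 in DsRed-positive and 67.3, 154 and 11.4 in DsRed-negative cells, at or below the control level on all 6 arrays. Cxcr6, the receptor of Cxcl16, read 6.55, 7.27 and 5.91 against 373, 11.6 and 182, above the control level on 1 array, DsRed-negative 1. Cxcr5, a B cell receptor, read 48.9, 10.4 and 47.2 against 119, 259 and 206. Ccr3, Ccr4, Ccr7, Ccr8 and Ccr10 were not tested either. In all, 9 members lay at or below the control level on all 6 arrays, among them Ccl20, Cxcl5 and Cxcr2, and 18 lay above it on all 6.

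Set by ligand and receptor, Cxcl12 was lower together with both of its receptors. For Ccl2 with Ccr2 and for Cx3cl1 with Cx3cr1 the receptor was lower while the ligand did not pass the test. Cxcl1 and Cxcl2 were lower, while Cxcr2 was at or below the control level in both groups. For Ccl20 with Ccr6 and Cxcl16 with Cxcr6 neither gene was called. None of these relations was tested as a difference between the genes of a pair.

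Other genes that act with chemokines under other names gave 1 higher and 5 lower of 12 tested (15 measured), or 8.33% and 41.7% beside 9.21% and 11.3% of all genes, with a median difference of -1.47. Ppbp, given above with its neighbours, was the higher one. Rarres2, which encodes the attractant chemerin, read 24.2, 25.9 and 54.6 against 14787, 17488 and 15921, all DsRed-positive arrays being at or below the control level. It was at least 90.3-fold lower (difference -7.60 ± 0.33, limma adjusted p = 7.43e-05). Ccrl2, a receptor that presents chemerin without signalling, read 719, 945 and 924 against 7955, 9758 and 5638 (difference -3.07 ± 0.35, adjusted p = 0.00118). Cmklr1, the signalling receptor of chemerin, did not pass (-1.74, adjusted p = 0.201), and DsRed-negative 2 read 58.3 there against 267 and 946. Cmtm7 (-3.91, adjusted p = 0.00109), Cmtm3 (-2.48, adjusted p = 0.00605) and Pf4 were also lower. The other probe set of Cmtm7 did not pass (-1.21, limma adjusted p = 0.180), and its groups overlapped. The cytokine Mif, a ligand of Cxcr4, stood at 1.40 (adjusted p = 0.0766).

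Of 31 tested genes that carry or limit chemokine receptor signals (34 measured), 7 were lower (22.6%, beside 11.3% of all genes) and 1 higher (3.23%, beside 9.21%), with a median difference of -0.66, and 23 did not pass. Rgs1, a brake on Gi signalling in leukocytes, was lower by -3.53 (limma adjusted p = 0.000399) and Gnai1, a Gi alpha subunit, by -3.59 (adjusted p = 0.00177). Coro1a, a leukocyte actin regulator, was at least 5.22-fold lower (adjusted p = 0.00404, or 0.0758 without both arrays numbered 1), with all 3 DsRed-positive arrays at or below the control level. Rap1gap2, which limits Rap1 activity, was higher at 3.82 (adjusted p = 0.00115), with signals of 10162, 8270 and 6768 against 901, 651 and 360.2. The other 4 lower genes differed by -2.97 to -1.37. Gnai2, the main Gi subunit of leukocytes, stood at -1.06 (adjusted p = 0.0602) and the arrestin Arrb2 at -1.28 (adjusted p = 0.0675).

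Of 19 tested genes that induce chemokine genes or carry that signal, 7 were lower (36.8%, beside 11.3% of all genes) and 0 higher (beside 9.21%), with a median of -0.72; 20 were measured. The cytokine Il6 was lower by -4.73 (limma adjusted p = 0.0013), Tnfrsf1b, a TNF receptor, by -3.49 (adjusted p = 0.00092), Irf1, an interferon-response factor, by -3.19 (adjusted p = 0.00076) and Il1b by -2.75 (adjusted p = 0.0091, or 0.0585 without both arrays numbered 1). Of the other 3 lower genes, Il17a was at least 1.89-fold lower (adjusted p = 0.0467), with all 3 DsRed-positive arrays at or below the control level, and the others differed by -1.56 and -1.36. Il17a read only 281, 500 and 337 in DsRed-negative cells, and its call was not rerun under the alternatives. In this list, at an unadjusted p under 0.05 the counts were 10 lower and 0 higher, again without a share of all genes to set beside them. The NF-kappaB subunit Rela stood at 0.23 (adjusted p = 0.682), its inhibitor Nfkbia at -0.72 (adjusted p = 0.153) and Tnf at 0.13 (adjusted p = 0.939).

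Proteoglycans hold chemokines at cell surfaces and in matrix, and metalloproteases cut them or shed their tethered forms. Of 19 such genes measured and tested, 10 were lower (52.6%, beside 11.3% of all genes) and 2 higher (10.5%, near the 9.21% of all genes), with a median of -1.33. The lower ones included the matrix genes Mmp2 (-7.83, limma adjusted p = 0.000101), Bgn (-7.48, adjusted p = 0.00011) and Dcn (-6.67, adjusted p = 7.43e-05), and the surface proteoglycan Sdc2 (-3.26, adjusted p = 0.000482). The epithelial syndecan Sdc1 was higher at 2.78 (adjusted p = 0.00123), with 42489, 70547 and 61447 against 8803, 11824 and 8383. Adam10, a sheddase of Cx3cl1 and Cxcl16, was higher at 1.76 (adjusted p = 0.00983, or 0.0711 without both arrays numbered 1). Adam17 stood at 0.34 (adjusted p = 0.644).

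Markers of most cell types that carry many of these genes moved with the groups. The counts below stand beside 11.3% of all genes called lower and 9.21% called higher, and rest on only 3 to 10 tested genes a list. Of leukocyte markers 6 of 8 tested were lower in DsRed-positive cells, with summed signals of 5103 to 6697 against 23393 to 41075. Lcp1, an actin-bundling protein, stood the other way at 1.64 (limma adjusted p = 0.0567), and its 5206, 4468 and 5532 made up most of the DsRed-positive sums. Ptprc was at or below the control level on 2 of the 3 DsRed-positive arrays and Coro1a on all 3. Of macrophage and dendritic cell markers 6 of 10 were lower (3441 to 7501 against 26333 to 27791), and Csf1r stayed above the control level on all 6 arrays. Mast cell markers were lower in 3 of 5 (418 to 599 against 21479 to 32872), with Cpa3 and Hdc at or below the control level on all DsRed-positive arrays. Lymphocyte markers were lower in 2 of 5 (336 to 870 against 2520 to 2889), with Cd3e and Cd3g likewise. Endothelial markers were lower in 5 of 6 (1465 to 2099 against 11551 to 17702) and smooth muscle markers in 4 of 5 (1950 to 2830 against 96641 to 187415). Of 3 tested neutrophil markers 0 were called by limma and 0 had an unadjusted p under 0.05 (309 to 918 against 699 to 2017). The part of these cell types in the chemokine and receptor values was not tested.

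**Figure D4:**
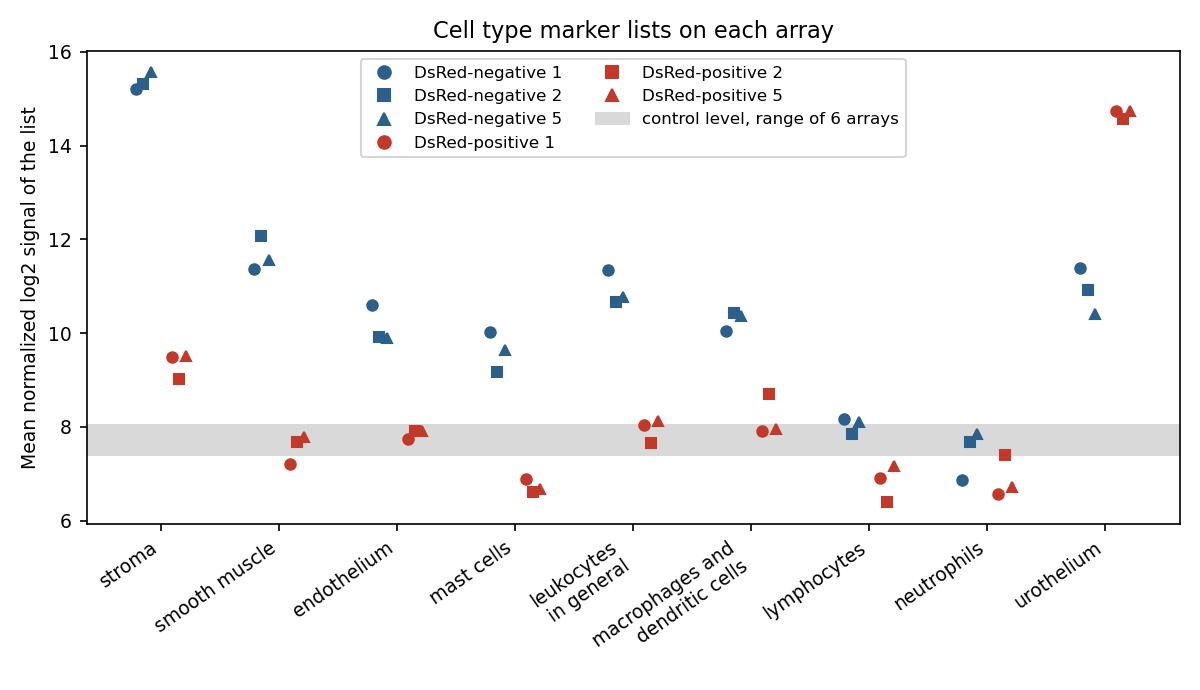
Mean normalized log2 signal (y axis) of 9 cell type marker lists on each array, blue for DsRed-negative and red for DsRed-positive, with the control level shaded. The urothelial list lies higher in DsRed-positive cells, the stromal, muscle, endothelial, mast cell, general leukocyte, macrophage and lymphocyte lists lie lower, and the neutrophil list overlaps between groups.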

How the data were processed

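The deposited values were probe set intensity on a linear scale, made by the authors with GCOS per the submitters' processing notes; the sources used here do not give its version or settings. Deposited arrays shared 1 trimmed mean. After adding 39.84 (the 20th percentile over all arrays), log2 was taken and the arrays quantile normalized, since array medians spanned 0.737 (limit 0.2). Of 45101 probe sets, control probe sets were left out and those with a mean log2 signal above the 33rd percentile (7.18) were tested, 30175 in all. Gene names came from the platform annotation, updated through gene IDs. Of several probe sets with 1 gene name, the brightest on average stood for the gene.

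Groups were compared with limma 3.58.1 in R 4.3.3 (lmFit and eBayes, two-sided), and the p-values were adjusted by Benjamini-Hochberg over the 30175 probe sets and called at 0.05; the scripts were tested on simulated data. Where all arrays of a group lay at or below the control level, folds were computed against that level. The number of arrays limits the precision. Array values were given for called members, for the 4 brightest ligands and 4 brightest receptors and for the ligand and receptor pairs; other members were named with their difference where they passed the filter, and of the other lists mainly the 4 smallest p. Pf4, Cmtm3, Mif, Cmklr1, Gnai2, Arrb2, Rela, Nfkbia, Tnf, Il17a, Lcp1, Sdc1, Adam10 and Adam17 were named after their values were seen. The members and lists were chosen with earlier results of these data known. The alternatives were other scaling, offset, filter, estimation and probe set choices, the array number as a block, and each array left out; leaving out both arrays numbered 1 was added after seeing the data. Probe sets shared by several genes were not used for the members.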

Additional observations from a re-analysis of the deposited data

How the results depend on the processing

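The count of members lower in DsRed-positive cells was 11; it was 18 with the values as deposited (where 14.3% of all genes were lower), 6 without both arrays numbered 1, 7 to 12 with 1 array left out (7 without DsRed-positive 1 and 7 without DsRed-positive 5), and 9 to 13 under every other alternative. Of all genes, 5.33% were lower without both arrays numbered 1 and 9.83% with median centring. For the other alternatives no such share was computed, and the number of members tested changed with the filter. These counts therefore do not tell how stable the members were beside other genes. The count of higher members stayed at 0 throughout. Deviations of same-numbered arrays from their group means correlated at 0.145, 0.0372 and 0.0534; each array correlated best with its own number, and both arrays numbered 1 shared their sex-linked signals, which is a hint from the data and not from the labels, and the fit without pairs was kept. With the array number as a replicate block, 11 members were lower: Ccr1 (-2.35, limma adjusted p = 0.0203) was then called and Ccr2 (-2.06, adjusted p = 0.0751) was not. The share of all genes called lower with the block was not computed. The median difference over all tested probe sets was 0.09, against -0.18 as deposited and 0.36 with median centring. Of the named members' values under the alternatives, 459 kept direction and side of the threshold, 27 lost the call, 21 gained one and 28 changed sign. The sign changed only in 8 members that did not pass the test. With median centring the values were 0.20 for Ccl28, 0.0065 for Ccr9 and 0.36 for Cxcl16. As deposited they were -0.42 for Cxcl17, -0.14 for Cxcl3 and -0.47 for Cxcl9. Without both arrays numbered 1 they were 0.14 for Ccl28, 0.35 for Ccr9, 0.23 for Cxcl16, -0.90 for Cxcl3 and -0.25 for Cxcl9. With the mean over probe sets they were 0.10 for Ccl28 and -0.29 for Cxcl11. With 1 array left out they ran from -1.21 to 0.27 for Ccl27a, -0.42 to 0.18 for Ccl28, -0.36 to 0.32 for Ccr9, -0.74 to 0.15 for Cxcl16, -0.44 to 0.42 for Cxcl17, -0.72 to 1.07 for Cxcl3 and -0.41 to 0.34 for Cxcl9. The cause of these changes was not tested. All 3 DsRed-positive arrays lay at or below the control level for Cxcl14, Cxcr4, Rarres2, Coro1a and Il17a among the lower members and listed genes named, and their folds are bounds.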

Other observations

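Probe sets that several gene copies share were not used for the members. The brighter of the 2 probe sets shared by Ccl27a and Ccl27b read 128, 312 and 310 in DsRed-positive cells and 492, 704 and 526 in DsRed-negative cells, without overlap (difference -0.72 ± 0.38, limma adjusted p = 0.239). The probe set shared by the copies of Ccl21, a lymph node ligand of Ccr7, lay at or below the control level on all 6 arrays. That of Ccl19, the other Ccr7 ligand, was above it on 1 array, DsRed-negative 2, at 399, while the other 5 read 24.8 to 49.8.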
